A study of Mus musculus with 34 samples.

Results

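The Serpina3 genes are a run of neighbouring, closely related genes on mouse chromosome 12 that arose by repeated duplication. The proteins are serpins, secreted or intracellular inhibitors that trap a protease with an exposed stretch, the reactive centre loop, which the protease cuts as if it were a substrate. The loop differs between copies and sets which protease is caught. Human has a single counterpart, SERPINA3 (alpha-1-antichymotrypsin), an acute phase protein of the liver. In mouse, Serpina3n inhibits granzyme B and leukocyte elastase and is a widely used marker of reactive astrocytes, and Serpina3g (also called Spi2A) inhibits lysosomal cathepsins.

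Members were taken by symbol from the deposited count table: Serpina3f, Serpina3g, Serpina3h, Serpina3i, Serpina3m and Serpina3n, which are 6 of the 48795 genes counted and 6 of the 19565 that passed the filter on low counts. A further 8 rows carry a Serpina3 name and are not members. RNA was counted in cells of lumbar dorsal root ganglia, enriched for sensory neurons on a 20% Percoll layer, from mice 8 to 12 weeks old, 3 days after crush of the left sciatic nerve. Each of 17 mice gave 1 library of the injured side and 1 of the uninjured side, called naive. The study asks what the transcription factor ATF3 does in the neurons' response to injury.

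The groups were 8 cKO injured, 8 cKO naive, 9 wt injured and 9 wt naive libraries. All 8 cKO mice carried Advillin-Cre and 2 floxed copies of Atf3, in which Cre removes exon 3; Advillin drives Cre in sensory neurons, so other cells of the ganglion keep ATF3. They were 5 females and 3 males. The wt controls, all with functional ATF3, were 6 females labelled Cre-negative, of which 4 were heterozygous for the floxed allele, and 3 males labelled Cre-positive without it. Cre and sex therefore cannot be told apart among the controls, and no Cre-positive control female was included. Mice are called by genotype and animal number, as in cKO-131.

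Library totals ran from 35732193 to 77632944 counts. The 12 markers of sensory neurons summed to between 10200 and 19400 CPM in a library, where CPM is a gene's share of the library's counts after TMM scaling. The 10 Schwann cell, 12 satellite glia and 12 endothelial markers summed to at most 844, 2590 and 449 CPM. Neutrophil and fibroblast markers reached 1020 and 668 CPM, so cells other than neurons were present. The reactive glia list, which includes Vgf, Vim, Cd44 and Osmr, reached 2730 CPM, and which cells made that RNA was not tested. Sums over different lists are not compared with each other. Atf3 itself, counted over the whole gene and not over the floxed exon 3, averaged 263.5 ± 59.6 CPM in cKO injured, 118.9 ± 25.5 in cKO naive, 363.9 ± 145 in wt injured and 124.7 ± 30.8 in wt naive libraries. It was not called between genotypes on the injured side (log2 change -0.46, adjusted p = 0.135 in edgeR's test), so these counts do not show the deletion. Avil, the locus of the driver, lay between 432.5 and 555.5 CPM in the libraries labelled Cre-positive, with the exception of mouse cKO-131 (88.78 CPM injured, 83.39 CPM naive). In the libraries labelled Cre-negative it lay between 792.5 and 1036 CPM, with the exception of mouse wt-150 (516.9 CPM injured, 499.2 CPM naive). The results below were also computed without these mice. In such bulk RNA, fewer cells of a type and less RNA per cell cannot be told apart.

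All coordinates are of build GRCm38. Serpina3f (ENSMUSG00000066363) lies at chr12:104214544-104221129, Serpina3g (ENSMUSG00000041481) at chr12:104236245-104241939, Serpina3h (ENSMUSG00000041449) at chr12:104247905-104253669, Serpina3i (ENSMUSG00000079014) at chr12:104263122-104269372, Serpina3m (ENSMUSG00000079012) at chr12:104338486-104394257 and Serpina3n (ENSMUSG00000021091) at chr12:104406729-104414329. All 6 are on the plus strand. The GENCODE annotation gives 5 as protein coding and Serpina3h as a transcribed unprocessed pseudogene. The annotated span of Serpina3m starts at the same base as Serpina3k (chr12:104338486-104346144), which is on the same strand, so reads in the shared exons cannot be given to either.

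**Figure D1:**
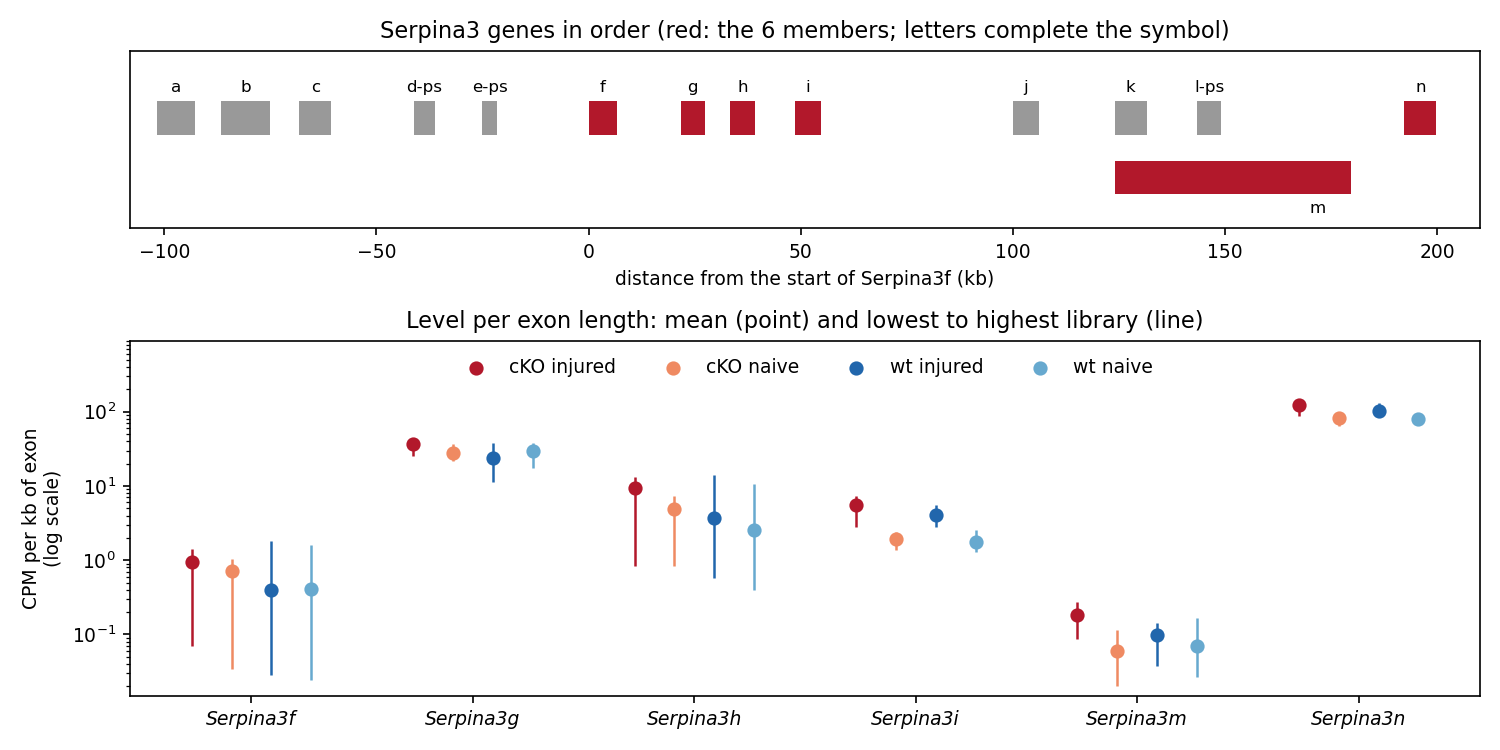
Top, the Serpina3 genes by distance in kb from the start of Serpina3f, with the 6 members in red and the other family genes in grey. Bottom, the level of each member in CPM per kb of exon on a log scale, with the mean as a point and the lowest to highest library as a line, for 8 cKO injured, 8 cKO naive, 9 wt injured and 9 wt naive libraries; Serpina3n was highest in every group and the lines of Serpina3h and Serpina3f are the longest.

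The reactive centre loop is where the proteins meet the protease. The stretch from the loop's conserved hinge to the conserved bases after the loop is printed from the annotated transcripts, 5′ to 3′, to show how far the members part there and how much of it they still share, since shared stretches limit how reads are assigned. Capitals mark bases that differ from Serpina3n in the alignment or have no base opposite them.
Serpina3n: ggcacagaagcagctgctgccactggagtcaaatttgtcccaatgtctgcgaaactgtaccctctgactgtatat
Serpina3g: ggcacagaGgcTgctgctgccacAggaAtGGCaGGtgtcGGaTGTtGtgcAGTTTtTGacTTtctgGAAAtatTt
Serpina3i: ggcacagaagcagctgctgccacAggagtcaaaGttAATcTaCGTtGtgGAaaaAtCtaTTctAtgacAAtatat
Serpina3f: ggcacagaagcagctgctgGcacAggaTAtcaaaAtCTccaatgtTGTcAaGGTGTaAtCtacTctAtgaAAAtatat
Serpina3h: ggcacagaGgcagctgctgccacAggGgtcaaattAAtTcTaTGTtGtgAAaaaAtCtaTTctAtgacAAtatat
Serpina3m: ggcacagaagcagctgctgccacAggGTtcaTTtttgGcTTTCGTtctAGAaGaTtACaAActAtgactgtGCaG

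The first bases, the hinge, were nearly the same in all 6, and the middle of the stretch carried most differences. Serpina3g differed from Serpina3n at 29 of 75 bases, Serpina3m at 25, Serpina3h at 20 and Serpina3i at 19. In Serpina3f the stretch has 78 bases, of which 73 align, and 23 are marked. Identity with Serpina3n in this stretch was thus 61.3% to 74.7%, beside 82.8% to 87.5% over the aligned transcripts. The measures are unlike, since the transcript values cover only the best matching part, without gaps, and the loop values the whole stretch. This favours the transcript values. Other stretches were not compared. Between other members, Serpina3h had a transcript identity of 94.3% with Serpina3g, 94.3% with Serpina3i and 93.6% with Serpina3f.

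Read sharing follows from this. Of the windows of 50 bases in a member's transcript, 24.4% in Serpina3h, 19.1% in Serpina3m, 16.0% in Serpina3g, 15.4% in Serpina3i, 10.7% in Serpina3f and 6.9% in Serpina3n occur unchanged in the transcript of another Serpina3 gene. With windows of 100 bases the shares were 6.09% in Serpina3m, 4.64% in Serpina3g, 4.21% in Serpina3h, 3.58% in Serpina3f, 2.33% in Serpina3i and 0.204% in Serpina3n. Serpina3n had the lowest share at both lengths, while the highest was that of Serpina3h at 50 bases and of Serpina3m at 100 bases. How the submitters' counting treated reads with several best matches is not given in the sources used here.

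Serpina3n had the highest level of the 6 in every group. Per kb of exon it averaged 125 ± 17.6 CPM in cKO injured, 82.54 ± 11 in cKO naive, 102.7 ± 11.9 in wt injured and 80.72 ± 7.49 in wt naive libraries (SD, n = 8, 8, 9 and 9). Serpina3g followed with 36.91 ± 6.43, 27.67 ± 4.27, 23.48 ± 8.92 and 29.38 ± 7.28 CPM per kb in the same order of groups. Serpina3h had 9.458 ± 4.34 CPM per kb in cKO injured, 4.834 ± 2.04 in cKO naive, 3.663 ± 5.71 in wt injured and 2.584 ± 3.84 in wt naive libraries, and Serpina3i had 5.531 ± 1.52, 1.914 ± 0.323, 4.018 ± 0.928 and 1.76 ± 0.422 in that order. The lowest library of Serpina3n lay above the highest of Serpina3g. The ranges of Serpina3h and Serpina3i overlapped in every group, and the order of that pair went by mouse. Per kb, Serpina3h lay above Serpina3i in both libraries of each mouse with high Serpina3h, as described below. It lay below Serpina3i in both libraries of every other mouse. Serpina3f stayed below 2 and Serpina3m below 0.3 CPM per kb in every library. Of the counts of the 6 members, Serpina3n made up 66.7% to 85.5% of a library.

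After crush, Serpina3n and Serpina3i rose in both genotypes, and Serpina3m rose in cKO ganglia. In cKO mice 3 of 6 members rose and 0 fell, against 2.61% of all tested genes that rose and 0.583% that fell (3.19% in either direction). In wt mice 2 of 6 rose and 0 fell, against 14.3% and 12.7% of all tested genes (27% in either direction). With the mouse as a block, which pairs the sides, 4 of 6 were called in cKO mice (Serpina3h in addition, higher), beside 8.4% of all tested genes in either direction, and 3 of 6 in wt mice (Serpina3g in addition, lower), beside 40.9%. Without the block, the median log2 change over the 6 members was 0.78 in cKO and 0.38 in wt mice, beside 0.02 over all tested genes in both. Here and below, a call is an adjusted p under 0.05 in edgeR's quasi-likelihood test, adjusted by Benjamini-Hochberg over all tested genes. The injury and genotype comparisons share libraries, so their values are not independent of each other.

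**Figure D2:**
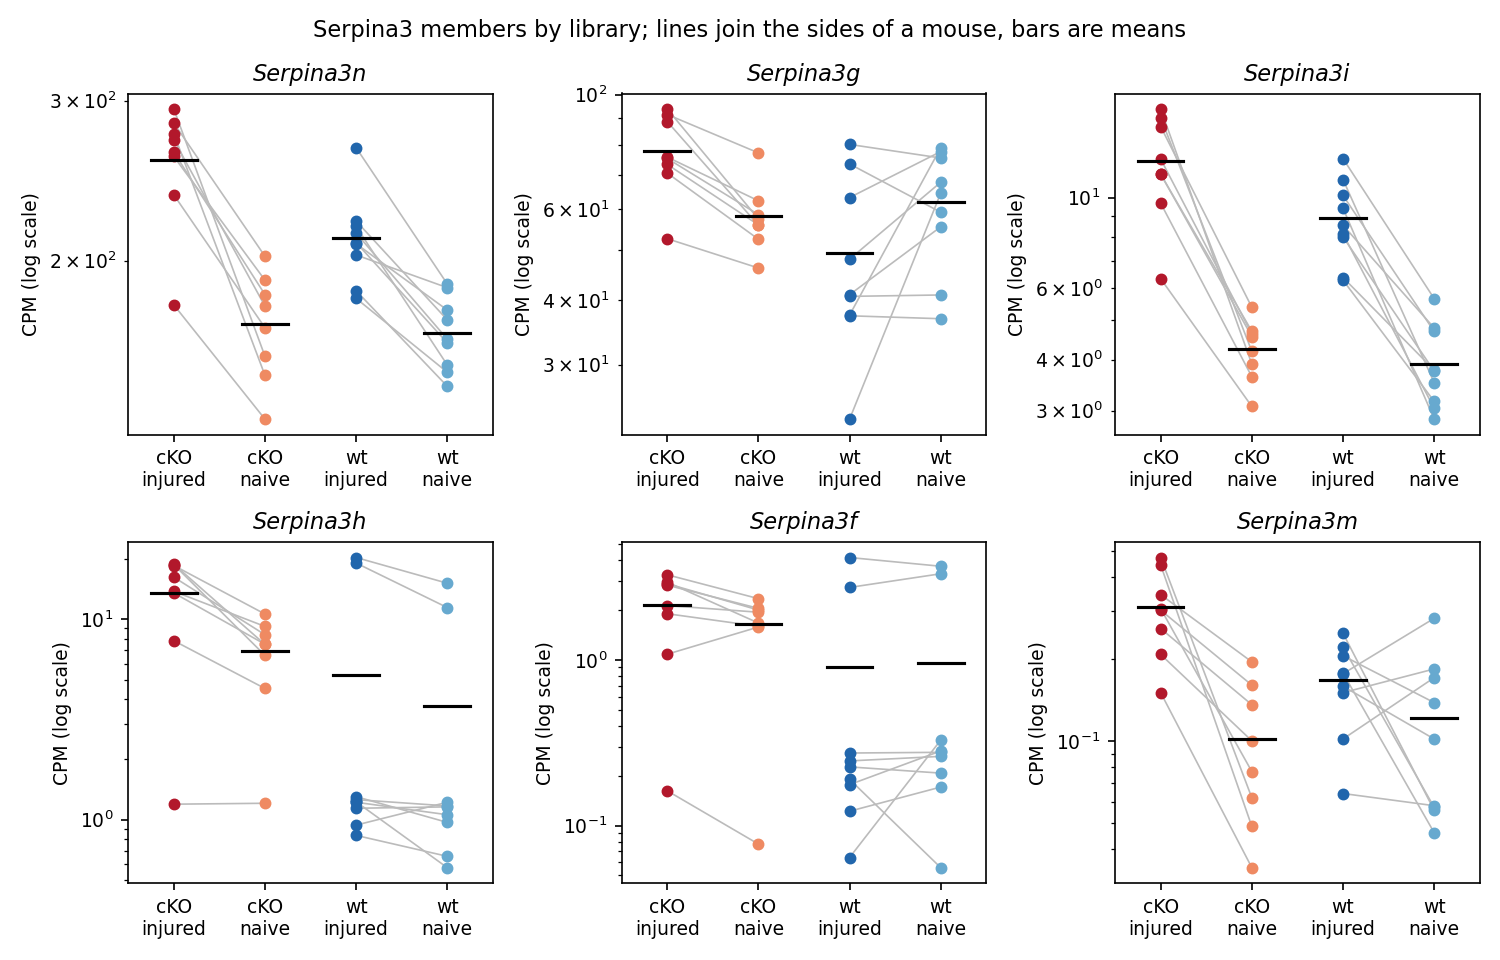
CPM on a log scale for each member in every library, by group, with 8 cKO injured, 8 cKO naive, 9 wt injured and 9 wt naive libraries. Grey lines join the sides of a mouse and black bars are group means; Serpina3n and Serpina3i were higher on the injured side of all 17 mice, and Serpina3h and Serpina3f separate into high and low mice.

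Serpina3n, the elastase and granzyme B inhibitor, had 178.7, 267.4 and 293.8 CPM (lowest, median and highest) in cKO injured libraries, against 133.8, 173.4 and 202.2 CPM in cKO naive libraries. In wt injured libraries it had 181.7, 209.4 and 266.3 CPM, against 145.4, 163.9 and 188.5 CPM in wt naive libraries. The groups overlap between mice, yet within each mouse the injured side was higher, in 8 of 8 cKO and 9 of 9 wt mice. The log2 change was 0.60 in cKO (SE 0.08, adjusted p = 6.51e-06) and 0.35 in wt mice (SE 0.08, adjusted p = 8.32e-04) in edgeR's test.

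The injured to naive ratio of Serpina3n was larger in cKO than in wt mice. On a log2 scale with a prior count of 2, the ratio of a mouse ran from 0.42 (cKO-131) to 0.91 (cKO-130) in cKO and from 0.12 (wt-150) to 0.51 (wt-146) in wt mice, with means of 0.595 ± 0.193 and 0.345 ± 0.122 (SD, n = 8 and 9). The 2 means differed by 0.25, with p = 0.00185 in a two-sided exact permutation test over the 24310 exchanges of genotype between mice (0.00555 after adjustment over the 3 tests of this gene). Each mean also differed from 0 by exact sign flips, with an adjusted p of 0.00781 in cKO, the smallest that 8 mice allow, and 0.00586 in wt mice. Without mice cKO-130 and cKO-152, which had the highest ratios, the cKO mice lay between 0.42 and 0.61, and 3 wt mice had ratios between 0.39 and 0.51.

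In edgeR's test of the difference of the 2 injury effects, Serpina3n reached 0.26 (SE 0.11, adjusted p = 0.291) without the mouse as a block and 0.25 (SE 0.07, adjusted p = 0.0471) with it. The calls for the members as a set moved in the same way: 0 of 6 passed without the block, beside 2.84% of all tested genes (0.695% with the larger value in cKO, 2.15% with the larger value in wt), and 2 of 6 (Serpina3n and Serpina3g) passed with it, beside 7.53%. At an unadjusted p under 0.05 the fit without the block gave 3 of 6 (Serpina3g, Serpina3m and Serpina3n), beside 2565 of all 19565 genes, and DESeq2 called 0 of 6, beside 4.17% of all genes.

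**Figure D3:**
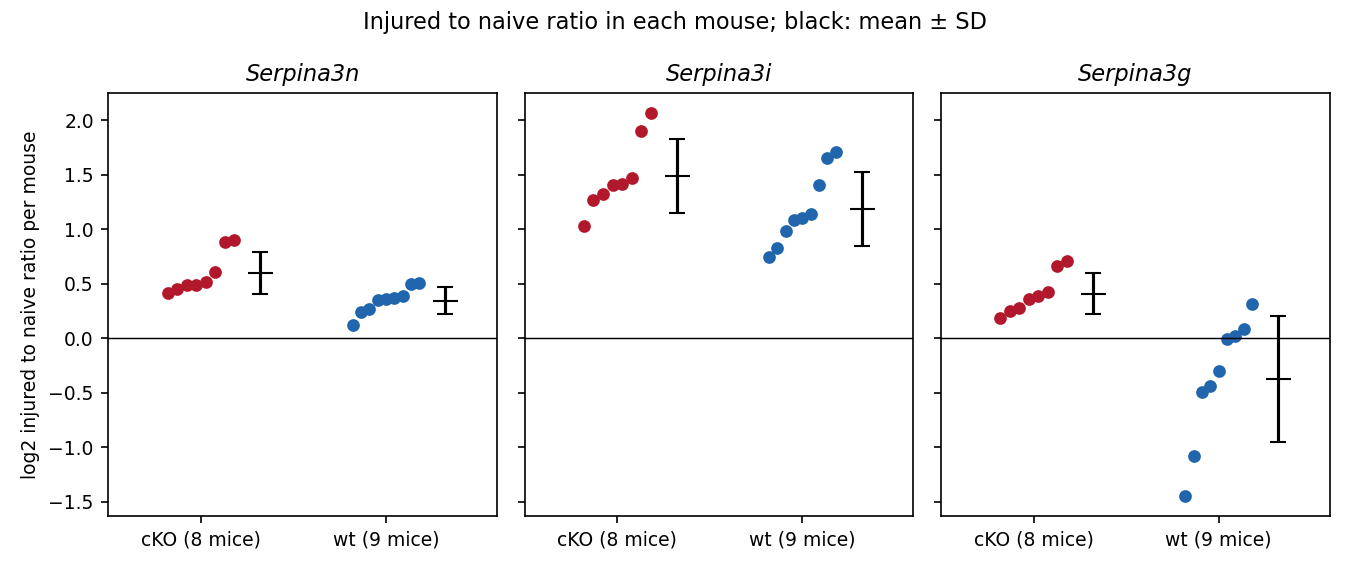
The log2 injured to naive ratio of each mouse (prior count 2) for Serpina3n, Serpina3i and Serpina3g, with cKO mice in red (n = 8) left of wt mice in blue (n = 9) and the mean ± SD in black. Serpina3n and Serpina3i lie above 0 in every mouse; Serpina3g lies above 0 in every cKO mouse and below 0 in 6 of 9 wt mice.

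Serpina3i had the largest injury response of the well-counted members. It had 6.321, 11.92 and 16.5 CPM (lowest, median and highest) in cKO injured libraries, against 3.07, 4.376 and 5.377 CPM in cKO naive libraries. In wt mice it had 6.271, 8.552 and 12.47 CPM on the injured side, against 2.858, 3.751 and 5.649 CPM on the naive side. The injured and naive groups did not overlap in either genotype. The log2 change was 1.53 (SE 0.17, adjusted p = 1.72e-07) in cKO and 1.19 (SE 0.16, adjusted p = 9.21e-07) in wt mice in edgeR's test, and the difference of these effects was 0.34 (SE 0.23, adjusted p = 0.634).

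Serpina3g, the cathepsin inhibitor, differed between mice in the direction of its response. It had 52.62, 75.49 and 93.84 CPM in cKO injured libraries, against 46.17, 56.71 and 77.16 CPM in cKO naive libraries, and was higher on the injured side of 8 of 8 mice. In wt mice it had 23.53, 40.99 and 80.13 CPM on the injured side, against 36.83, 64.46 and 78.98 CPM on the naive side, and was higher on the injured side of 3 of 9 mice. The lowest ratios among wt mice were in wt-176 and wt-172: wt-176 had 23.53 CPM injured against 64.46 CPM naive, and wt-172 had 37.42 CPM injured against 78.98 CPM naive. The injured library of wt-176 is also the shallowest of the series.

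The log2 changes of Serpina3g were 0.41 in cKO (SE 0.18, adjusted p = 0.296) and -0.33 in wt mice (SE 0.17, adjusted p = 0.169) in edgeR's test, so neither passed. With the mouse as a block the wt value was -0.36 and passed (adjusted p = 0.0389), the cKO value was 0.41 (adjusted p = 0.0834), and the difference of the effects was 0.77 (SE 0.20, adjusted p = 0.0219), against 0.74 (SE 0.25, adjusted p = 0.12) without the block. On the naive side, the lowest wt mice were wt-195 and wt-155, with 36.83 and 40.94 CPM, while the other wt mice lay between 55.49 and 78.98 CPM. These 2 mice changed little after crush, with 37.31 and 40.68 CPM on the injured side. They are also among the mice with high Serpina3h described below.

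Serpina3m was close to the limit of detection. A library held 8 to 36 of its counts in cKO injured, 2 to 11 in cKO naive, 2 to 17 in wt injured and 2 to 16 in wt naive ganglia. It averaged 0.3106 ± 0.109 CPM in cKO injured, 0.1017 ± 0.0572 in cKO naive, 0.1673 ± 0.0576 in wt injured and 0.1216 ± 0.0799 in wt naive libraries. It rose in cKO mice by 1.63 on the log2 scale (SE 0.34, adjusted p = 0.00284 in edgeR's test), with a higher value on the injured side of 8 of 8 mice. In wt mice the value was 0.43 (SE 0.33, adjusted p = 0.363), with 6 of 9 mice higher, and the difference of the effects was 1.2 (adjusted p = 0.211). Serpina3k is the gene with which Serpina3m shares most windows, and a library held 0 to 26 Serpina3k counts. It averaged 0.25 CPM in cKO injured against 0.0302 CPM in cKO naive libraries, a log2 change of 2.89 (SE 0.49, adjusted p = 1.8e-04). Serpina3k was also called by edgeR in wt mice, at 1.45 (adjusted p = 0.0251), with 0.102 CPM injured against 0.0345 CPM naive. Its injured level was called higher in cKO than in wt, at 1.27 (adjusted p = 0.036). The 2 injury effects of Serpina3k differed by 1.44, which was not called (adjusted p = 0.403).

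**Figure D4:**
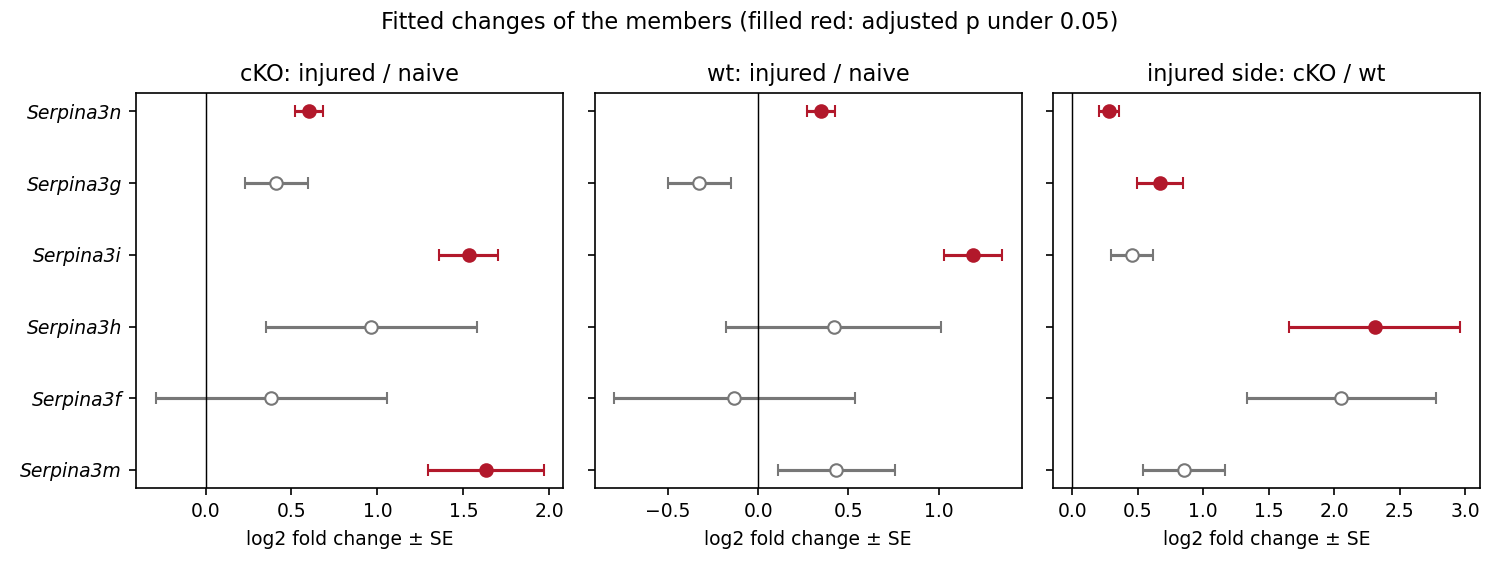
Fitted log2 fold changes of the 6 members with SE, for cKO injured against naive (left), wt injured against naive (middle) and cKO against wt on the injured side (right). Filled red points have an adjusted p under 0.05 in edgeR's quasi-likelihood test, which holds for Serpina3n, Serpina3i and Serpina3m on the left, Serpina3n and Serpina3i in the middle, and Serpina3n, Serpina3g and Serpina3h on the right.

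On the injured side, cKO libraries had more Serpina3 RNA than wt libraries. The 6 members summed to 247.5, 374.5 and 419.3 CPM (lowest, median and highest) in cKO injured libraries, against 235.8, 276.4 and 333.3 CPM in wt injured libraries. On the naive side the sums were 189.1, 253.4 and 272.8 CPM in cKO and 205.4, 235.4 and 270.5 CPM in wt libraries. All 6 members had a positive log2 change for cKO over wt on the injured side, and 3 of 6 were called higher and 0 lower, against 3.57% of all tested genes called higher and 7.55% called lower (11.1% in either direction). The median over the members was 0.76 on the log2 scale, beside 0.02 over all tested genes. The count and the median include Serpina3h and Serpina3f, which separated by mouse. Their values turned negative among males and among mice labelled Cre-positive, as given below. On the naive side 0 of 6 were called by edgeR and 0 by DESeq2, beside 0% and 0.00511% of all tested genes. At an unadjusted p under 0.05 there were 2 of 6 (Serpina3h and Serpina3f), beside 506 of all 19565 genes.

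The called members were Serpina3n, Serpina3g and Serpina3h. Serpina3n averaged 257.9 ± 36.3 CPM in cKO injured and 212 ± 24.5 CPM in wt injured libraries (SD, n = 8 and 9), a log2 change of 0.28 (SE 0.08, adjusted p = 0.0158). The groups overlapped at their edges, through cKO-131 at 178.7 CPM and wt-195 at 266.3 CPM. Without cKO-131 and wt-150 the log2 change was 0.34 (adjusted p = 9.41e-04), and it passed whichever mouse was left out. Among females alone it was 0.34 (adjusted p = 0.0966), among males alone 0.20 (adjusted p = 0.555), among mice labelled Cre-positive 0.23 (adjusted p = 0.531) and in mice with a high share of ribosomal spacer counts 0.26 (adjusted p = 0.195), so it passed in none of these smaller sets.

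Serpina3g averaged 77.69 ± 13.5 CPM in cKO injured and 49.42 ± 18.8 CPM in wt injured libraries, a log2 change of 0.67 (SE 0.18, adjusted p = 0.0103). It passed whichever mouse was left out. Among mice labelled Cre-positive it also passed, at 1.11 (SE 0.22, adjusted p = 0.00454 in edgeR's test), as the only member called, beside 3.32% of all genes. That set holds only 3 controls, all male. Of these, wt-155 and wt-195 already had the lowest naive Serpina3g of all mice, with 40.94 and 36.83 CPM. The part of these naive levels in that value was not tested. Among females alone the log2 change of Serpina3g was 0.47 (adjusted p = 0.299), and in mice with a high spacer share 0.47 (adjusted p = 0.285). Serpina3i reached 0.46 (SE 0.16, adjusted p = 0.0638) and was called without cKO-131 (0.56, adjusted p = 0.00945) or without wt-172 (0.55, adjusted p = 0.0256). Serpina3m reached 0.85 (SE 0.31, adjusted p = 0.0747) and was called without cKO-131 (0.95, adjusted p = 0.0428) or without wt-141 (0.88, adjusted p = 0.0469). Without cKO-131, 5 of 6 members were called, beside 10.9% of all genes in that fit. DESeq2 also called 5, beside 12.7%.

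Serpina3h and Serpina3f did not vary by side or genotype so much as by mouse. Serpina3h had between 4.511 and 20.3 CPM in both libraries of 9 mice and between 0.5762 and 1.303 CPM in both libraries of the other 8, with no library between 1.303 and 4.511 CPM. Serpina3f separated the same mice, with 1.083 to 4.15 CPM in the first and 0.0558 to 0.3282 CPM in the second. The 9 high mice were 7 of the 8 cKO mice (all but cKO-163) and the control males wt-155 and wt-195. The 8 low mice were cKO-163, the control male wt-172 and all 6 control females.

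No mouse had its injured and naive libraries on different sides of this gap. In cKO-163 Serpina3h had 1.194 CPM injured and 1.207 CPM naive, whereas in the other cKO mice it had 7.807 to 18.8 CPM injured and 4.511 to 10.61 CPM naive. In wt-155 it had 20.3 CPM injured and 15.11 CPM naive, and in wt-195 it had 19.05 CPM injured and 11.42 CPM naive. These control males lay above every other wt mouse on both sides, and above all cKO mice on the naive side.

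**Figure D5:**
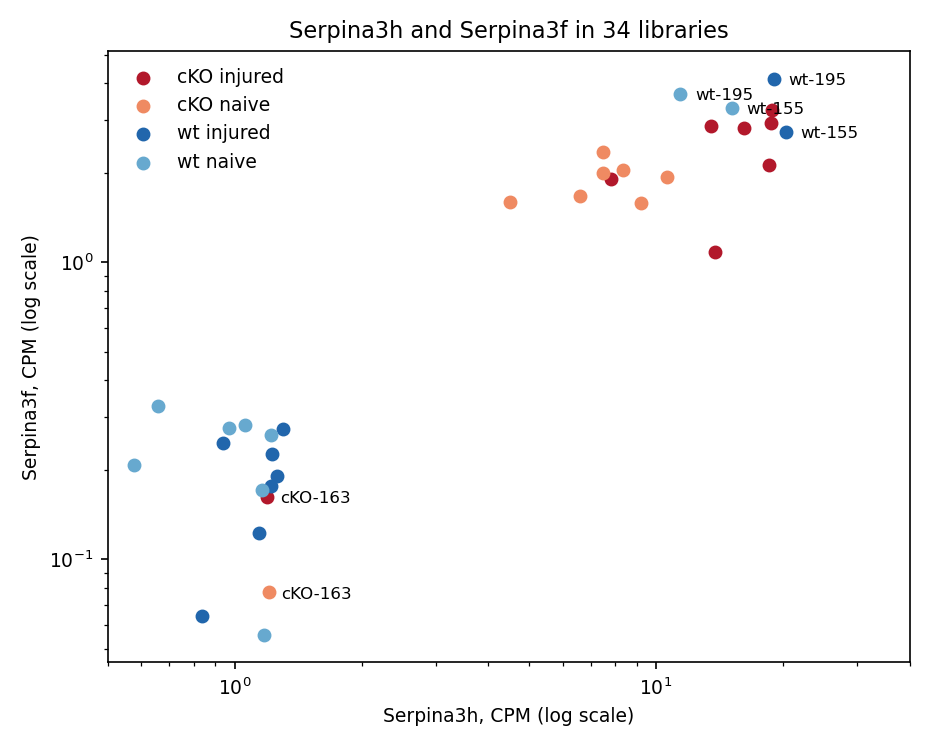
Serpina3f against Serpina3h in the 34 libraries, both in CPM on log axes, with cKO injured, cKO naive, wt injured and wt naive libraries in separate colours. The libraries of cKO-163, wt-155 and wt-195 are named; 18 libraries of 9 mice lie at the upper right and 16 libraries of 8 mice at the lower left, with no Serpina3h value between 1.303 and 4.511 CPM.

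Few genes showed such a separation of whole mice in a search of each gene's largest gap. Genes with 0 counts in any library could not enter this search, so genes that are off in some mice were missed. Among the 19565 tested genes, 11 (0.0562%) had a gap of at least 2-fold between libraries that kept the sides of each mouse together with at least 4 mice on each side. Of these, Serpina3h and Serpina3f were the only 2 that separated the same 9 mice from the same 8. Serpina3e-ps also kept these mice apart, by a narrower gap that the search did not count. It had at least 0.2511 CPM in the libraries of the 9 mice and at most 0.1978 CPM in those of the 8. Over 34 libraries, log2 levels of Serpina3h correlated with those of Serpina3f at r = 0.94 and with those of the neighbouring pseudogene Serpina3e-ps at r = 0.93, whereas the highest value for a gene outside the family was 0.62 (Aph1c). These correlations describe libraries that share depth and mice, and the 3 genes share sequence. With Serpina3g the log2 levels of Serpina3h correlated at r = -0.02 and with Serpina3i at r = 0.16. Over deviations from the group means, which take out injury and genotype, the values were -0.40 with Serpina3g and -0.29 with Serpina3i. On that scale the value with Serpina3f was 0.93. Naive levels of Serpina3g tended the opposite way by mouse, with overlap: 36.83 to 62.31 CPM in the 9 mice and 55.49 to 78.98 CPM in the 8. On the injured side Serpina3g had 37.31 to 93.84 CPM in the 9 mice and 23.53 to 91.56 CPM in the 8. Serpina3h lies between Serpina3g and Serpina3i and is as close to them in sequence as to Serpina3f. The part of read sharing in these values was not tested.

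The fitted genotype values of Serpina3h and Serpina3f stand beside these counts of high mice. On the injured side Serpina3h averaged 13.56 ± 6.23 CPM in cKO and 5.253 ± 8.18 CPM in wt libraries, which edgeR's test put at 2.31 on the log2 scale (SE 0.65, adjusted p = 0.0168). Serpina3f averaged 2.149 ± 1.07 CPM in cKO and 0.9097 ± 1.48 CPM in wt injured libraries, with 2.05 (SE 0.72, adjusted p = 0.0626). Among females, where all 5 cKO mice were high and all 6 controls low, the values were 3.65 for Serpina3h (adjusted p = 5.7e-09) and 3.58 for Serpina3f (adjusted p = 1.42e-07). Among males, where 2 of 3 mice of each genotype were high, they were -0.06 (adjusted p = 0.992) and -0.34 (adjusted p = 0.963).

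Other choices also moved the values. Among mice labelled Cre-positive the values were -0.08 for Serpina3h (adjusted p = 0.986) and -0.33 for Serpina3f (adjusted p = 0.941), and without sex in the model Serpina3h had 1.36 (adjusted p = 0.279). Without cKO-131 and wt-150 Serpina3h had 2.23 (adjusted p = 0.0505). Serpina3f was called without cKO-156, cKO-163, wt-155 or wt-195, with adjusted p of 0.0459, 0.00572, 0.0498 and 0.0189. On the naive side the values were 1.76 for Serpina3h and 1.54 for Serpina3f, neither called, and among females alone 2.93 (adjusted p = 3.3e-07) and 2.79 (adjusted p = 1.28e-05); these were the 2 genes called there, of 19842 tested (0.0101%). Among females, a difference by ATF3 genotype and one by Cre cannot be told apart, since all cKO females were Cre-positive and all control females Cre-negative. Mice with the same genotype, Cre and sex labels fell on both sides of the gap. Of the Cre-positive control males, wt-172 was low and wt-155 and wt-195 were high. Of the cKO males, cKO-163 was low and cKO-156 and cKO-194 were high. What separates the mice was not tested. The strain background of the mice is not given in the sources used here, and inherited differences between mice at this locus were not tested.

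Within cKO mice, Serpina3h rose after crush where each mouse was its own control. It was higher on the injured side of 7 of 8 cKO mice, the exception being the low mouse cKO-163, and of 7 of 9 wt mice. Without the mouse as a block the log2 change was 0.97 (SE 0.61, adjusted p = 0.548) in cKO and 0.42 (SE 0.60, adjusted p = 0.677) in wt mice. With the block it was 0.88 (SE 0.13, adjusted p = 2.1e-04) in cKO, which passed, and 0.34 (SE 0.14, adjusted p = 0.0641) in wt mice. All cKO mice but cKO-163 were high mice, whereas of the wt mice only wt-155 and wt-195 were. Serpina3h was higher on the injured side of every high mouse, with log2 ratios of 0.425 in wt-155 and 0.736 in wt-195. Among the low mice the ratio ran from -0.367 (wt-175) to 1.05 (wt-146). Whether the rise goes with genotype or with this separation of mice was not tested. Serpina3f had 0.34 (adjusted p = 0.263) in cKO and -0.14 (adjusted p = 0.64) in wt mice with the block.

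The promoters were compared because Serpina3i and Serpina3n moved together after crush. RefSeq (GRCm38.p6) gave an entry, 250 bases before to 50 after the transcript start, for 4 of the 6 members, with a second entry for Serpina3f that overlaps the one printed; Serpina3h and Serpina3m are named only. Motifs searched on both strands were TTCNNNGAA and the same letters with 4 unspecified bases in the middle, both bound by STAT factors, and TGANTCA and TGACGTCA, the sites of AP-1 and of CREB and ATF factors. Capitals mark matches.
Serpina3n, chr12:104406458-104406757, plus strand: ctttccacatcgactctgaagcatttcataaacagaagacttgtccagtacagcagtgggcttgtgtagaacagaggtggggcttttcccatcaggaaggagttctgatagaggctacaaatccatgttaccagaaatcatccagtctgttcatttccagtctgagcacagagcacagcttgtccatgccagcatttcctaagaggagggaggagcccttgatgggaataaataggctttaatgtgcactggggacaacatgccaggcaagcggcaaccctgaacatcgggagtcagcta
Serpina3g, chr12:104235897-104236196, plus strand: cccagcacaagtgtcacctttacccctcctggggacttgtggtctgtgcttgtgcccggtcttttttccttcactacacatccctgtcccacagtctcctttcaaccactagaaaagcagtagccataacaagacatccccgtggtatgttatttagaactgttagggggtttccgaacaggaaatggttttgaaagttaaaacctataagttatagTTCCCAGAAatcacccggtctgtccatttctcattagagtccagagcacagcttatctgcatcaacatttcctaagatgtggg
Serpina3i, chr12:104262872-104263171, plus strand: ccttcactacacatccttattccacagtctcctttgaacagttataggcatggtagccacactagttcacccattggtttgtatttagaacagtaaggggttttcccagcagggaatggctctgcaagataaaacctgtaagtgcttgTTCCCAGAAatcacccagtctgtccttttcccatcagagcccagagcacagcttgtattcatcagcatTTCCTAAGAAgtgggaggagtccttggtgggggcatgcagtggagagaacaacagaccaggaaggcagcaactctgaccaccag
Serpina3f, chr12:104214294-104214593, plus strand: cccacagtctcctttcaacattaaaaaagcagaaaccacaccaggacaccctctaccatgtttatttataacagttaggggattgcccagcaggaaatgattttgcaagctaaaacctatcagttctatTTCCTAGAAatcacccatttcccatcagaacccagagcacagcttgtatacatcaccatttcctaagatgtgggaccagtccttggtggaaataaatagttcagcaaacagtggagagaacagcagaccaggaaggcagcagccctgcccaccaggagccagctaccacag

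TTCNNNGAA occurred once in Serpina3g, once in Serpina3i and once in Serpina3f, starting at positions -33, -102 and -121 from the transcript start (at -210 from the start of the second Serpina3f entry), and not in the window of Serpina3n. The form with 4 middle bases occurred once, in Serpina3i. TGANTCA and TGACGTCA occurred in none of the 4. Of all 32851 promoter entries of this length, 8.3% hold TTCNNNGAA, 6.95% the form with 4 middle bases, 7.81% TGANTCA and 1.79% TGACGTCA. In Serpina3g, Serpina3i and Serpina3f the TTCNNNGAA match is followed by the same bases, atcaccc. The copies arose by duplication, so these matches are not separate occurrences to set against that share. The window of Serpina3n had 81.3% identity with that of Serpina3i over 203 aligned bases and 81.6% with that of Serpina3g over 136.

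The rest of the family was mostly near 0. Serpina3a had 0 counts in all 34 libraries, and Serpina3b and Serpina3j had at most 7 counts in a group. Serpina3c, which lies on the minus strand beyond Serpina3f, was the only other copy above 1 CPM on average. It averaged 3.201 ± 1.34 CPM in cKO injured, 2.111 ± 1.11 in cKO naive, 1.266 ± 0.544 in wt injured and 2.066 ± 0.592 in wt naive libraries. It fell in wt mice by 0.72 on the log2 scale (SE 0.23, adjusted p = 0.016), lower on the injured side of 9 of 9, and had 0.69 (adjusted p = 0.118) in cKO mice, higher in 7 of 8. With the mouse as a block the cKO value was 0.63 and passed (adjusted p = 0.0317). The difference of the effects, 1.41 (SE 0.33, adjusted p = 0.0113 in edgeR's test), passed, so Serpina3c has the same signs as Serpina3g in the 2 genotypes.

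Of 15 other serpins tested, 5 were lower and 0 higher in cKO than in wt on the injured side, beside 7.55% and 3.57% of all tested genes; 10 were not called and the median log2 change was -0.09. In this list, after crush, 1 rose and 0 fell in cKO mice, beside 2.61% and 0.583% of all tested genes. In wt mice 6 rose and 1 fell, beside 14.3% and 12.7%. Serpinb1a, an inhibitor of neutrophil proteases, rose in cKO mice by 1.81 (adjusted p = 6.75e-07) and in wt mice by 2.53 (adjusted p = 7.26e-11) on the log2 scale. Its level was 160.7 CPM in cKO injured and 244.3 CPM in wt injured libraries.

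A list of proteases was taken as candidate targets of serpins of this family, and whether each is inhibited was not tested. Of 14 tested, 5 rose in wt mice (Ctss, Cela1, Ctsb, Ctsl and Ctsh), beside 14.3% of all tested genes. In cKO mice 2 rose (Ctsb and Ctsl), beside 2.61%, and none fell in either genotype. The cathepsin gene Ctsl was called higher in cKO than in wt on the injured side, with 554.1 against 492 CPM, a log2 change of 0.17 (adjusted p = 0.0187). The leukocyte protease genes stayed low: Elane averaged 3.228 CPM in cKO injured, 2.366 in cKO naive, 1.966 in wt injured and 1.198 in wt naive libraries, and Gzmb at most 0.176 CPM in a group; neither was called after crush.

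Serpina3n is known to respond to cytokines of the IL-6 family through gp130 and STAT3, and to glucocorticoids, and Serpina3g to interferon-gamma. Of 25 tested genes of the gp130 and STAT3 list, 12 rose and 0 fell in wt mice, beside 14.3% and 12.7% of all tested genes. In cKO mice 4 rose and 0 fell, beside 2.61% and 0.583%. On the injured side 2 of the list were higher and 1 lower in cKO than in wt, beside 3.57% and 7.55%. The 2 higher ones were Reg3g and Reg3b, secreted lectins that injured sensory neurons make, with 1.574 and 1.039 CPM in cKO injured against 0.174 and 0.1377 CPM in wt injured libraries (adjusted p = 2.1e-05 for each). Stat3 itself had 535.2 CPM in cKO injured and 573.1 CPM in wt injured libraries and was not called between genotypes (adjusted p = 0.142).

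Of 14 tested acute phase genes, 1 rose (C4b) and 1 fell (A2m) in wt mice, C4b alone rose in cKO mice, and 1 (A2m) was higher in cKO than in wt on the injured side, with 11.95 against 7.298 CPM (log2 change 0.71, adjusted p = 2.4e-04). Of 30 tested interferon-gamma genes, 5 rose in wt and 0 in cKO mice, beside 14.3% and 2.61% of all tested genes. In this list 2 were higher and 1 lower in cKO on the injured side, beside 3.57% and 7.55%. These interferon-gamma counts lie near the shares over all genes. The same shares, with 12.7% falling in wt and 0.583% in cKO mice, stand beside the other lists of this paragraph. Of 15 glucocorticoid-responsive genes, 1 rose and 5 fell in wt mice, 1 rose and 1 fell in cKO mice, and 3 were higher and 1 lower in cKO on the injured side. Over the 14 regeneration-associated genes, 14 rose in wt and 11 in cKO mice and 12 were lower in cKO on the injured side.

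Markers of other cells moved too. The counts below stand beside 14.3% of all tested genes that rose in wt and 2.61% that rose in cKO mice. Between genotypes, 3.57% of all tested genes were higher and 7.55% lower in cKO on the injured side. Of 14 macrophage markers, 12 rose in wt and 0 in cKO mice, and 6 were lower and 0 higher in cKO on the injured side; their summed level was 32 to 174 CPM in cKO injured, 23.6 to 93.7 in cKO naive, 34.9 to 132 in wt injured and 6.65 to 59.9 CPM in wt naive libraries. Of 9 tested genes of the reactive glia list, whose source among the cells was not tested, 5 rose in wt and 2 in cKO mice. The sums of this list were 1120 to 1490, 758 to 983, 1310 to 2730 and 746 to 960 CPM in the same order. In cKO, 1 of its genes (Timp1) was higher and 2 were lower on the injured side. Of 11 satellite glia markers, 1 (Glul) rose in wt and 0 in cKO mice and 1 was lower in cKO on the injured side. Of 11 neutrophil markers, 1 (Ly6g) rose in wt and 0 in cKO mice, with sums from 13.5 to 1020 CPM over all libraries.

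The 7 hepatocyte markers, of the organ that makes most circulating SERPINA3 in human, summed to at most 0.991 CPM in a library, with 5 counts of Alb in all 34 libraries. The T, B and NK cell markers summed to at most 7.36 CPM. Of 8 tested, 1 (Cd79a) was higher in cKO on the injured side, beside 3.57% of all tested genes. Of 12 sensory neuron markers 1 rose and 4 fell in wt mice, beside 14.3% and 12.7% of all tested genes. In cKO mice 0 of these markers changed, beside 3.19%. None of these defining markers was at 0 in all libraries. The part of other cells in the values of the members was not tested.

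Among the 8 genes outside the family whose log2 level followed Serpina3n most closely over the 34 libraries were Grxcr2 (r = 0.88), Ggt5 (0.87), Bdnf (0.83), Mfsd4b1 (0.83), Cacng5 (0.83), Spp1 (0.82) and Gabra5 (0.82), out of 13198 genes ranked. Over deviations from the group means, which take out injury and genotype, the closest 8 included Gng8 (0.76), Fth1 (0.76), Ilk (0.75), Ppcs (0.73) and Tmem141 (0.72). Among the members, the log2 level of Serpina3n correlated with those of Serpina3i at 0.83, Serpina3m at 0.72, Serpina3h at 0.49, Serpina3f at 0.34 and Serpina3g at 0.24, and over deviations from the group means with the other members at 0.13 (Serpina3g) to 0.47 (Serpina3h) and with Serpina3c at 0.72. These values share libraries, depth and the injury groups and are given as a description.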

How the data were processed

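The deposited table holds raw counts for 48795 Ensembl gene IDs, of which 48349 matched a symbol, and 34 libraries; rows with no gene ID and value columns of no sample numbered 0. Per the labels' protocols, libraries were stranded, paired-end and from total RNA. The submitters' processing notes name bcl2fastq 2.20, STAR, HTSeq and GRCm38. No version of STAR or HTSeq, strand setting or rule for reads with several matches is given in these sources.

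A single model of the 4 groups and sex over all 34 libraries was fitted by edgeR's robust quasi-likelihood method (version 4.0.16, R 4.3.3) after filterByExpr, which kept 19565 genes, and TMM scaling; adjusted p is by Benjamini-Hochberg, the threshold 0.05 and the SE the log2 fold change over the square root of F. Sides were paired by mouse: the deviations of a mouse's libraries from their group means had a median correlation of 0.501 among 17 pairs, with a range of 0.00976 to 0.761 and 16 above 0.1, and the fit with mouse as a block was an alternative. CPM are counts over the TMM-scaled library size; spread comes from mice. Exact permutations were used for Serpina3n. Within a group, no 2 libraries agreed within sampling noise (lowest chi-square per degree of freedom 9.3); pairs across groups were not compared. The pipeline was tested on simulated data.

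Transcripts and positions come from GENCODE for GRCm38, promoters from RefSeq for GRCm38.p6. Loops were found by conserved codons in Serpina3n, Serpina3g and Serpina3m and by alignment to Serpina3n in the others (Biopython 1.88). Named are all members, of each list up to 4 genes by p in the wt injury comparison plus genes that answer a count, and genes among the 8 most like Serpina3n; some genes that this rule names are not reported here. Serpina3e-ps, and the genes named for a genotype difference, were chosen after their values were seen, as was the 2-fold gap between mice. The members and lists were chosen with earlier results of these data known. Alternatives were other scaling (median ratio), no filter, DESeq2 1.42.0, no sex term, ribosomal spacer share as a covariate, each sex, each spacer set, Cre-positive mice, and leaving out mice.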

Additional observations from a re-analysis of the deposited data

Results flagged for a closer look

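In the injured libraries of wt mice, Serpina3n of wt-195 stood apart at 266 CPM; its gap to the next library was 0.534 of the range of the group. In the naive libraries of cKO mice, Serpina3f of cKO-163 stood apart at 0.0774 CPM, with a gap of 0.663 of the range. Of 24 sets of values (6 members in 4 groups), 2 had such a sample, and chance gives about 1 in 20. Serpina3f of cKO-163 is part of the separation of mice described above, and its injured library, at 0.1622 CPM, was also the lowest of its group.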

How the results depend on the processing

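The calls for Serpina3n after crush passed under every alternative run except those given here. In wt mice the log2 fold change was 0.344 in males alone (adjusted p = 0.115) and 0.349 in Cre-positive mice (adjusted p = 0.194), with 0 of 6 members called in either (4.22% and 7.64% of all genes); in cKO males it was 0.487 (adjusted p = 0.122), with 1 member called (0.513% of all genes). Between genotypes on the injured side it was 0.343 in females, 0.197 in males, 0.257 in 11 mice whose ribosomal spacer counts made up 13.7% to 20% and 0.23 in Cre-positive mice (adjusted p = 0.0966, 0.555, 0.195 and 0.531), fits with fewer mice. There the members called numbered 5 with DESeq2 and 5 with the spacer share as a covariate (12.7% and 15.2% of all genes), 0 in males (0.529%), 1 in Cre-positive mice (3.32%), and 3 to 5 when each mouse was left out (7.82% to 12.7%). On the naive side 2 members (Serpina3h and Serpina3f) were called in females, the 2 of 19842 genes called there. With the mouse as a block the difference of the injury effects of Serpina3n was 0.25 (adjusted p = 0.0471) and 2 members were called (7.53% of all genes). Serpina3h between genotypes on the injured side turned to -0.0619 in males and -0.0841 in Cre-positive mice. Leaving out each mouse gave Serpina3n 0.553 to 0.627 in cKO injury, 0.322 to 0.378 in wt injury and 0.26 to 0.34 between genotypes, all called. The Cre-positive subset and the split by spacer share were added after seeing the data; a split at 12% with the spacer genes first chosen could not be run, since no library reached it. Depth limits Serpina3m and, in the low mice, Serpina3f, where a library held 2 to 18 counts.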
